A study of Homo sapiens with 6 samples.

Results

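Neurexins, contactins and the scaffold proteins of the synapse were examined in 143B cells, a human osteosarcoma (OS) cell line, with or without deletion of CNTNAP4. The members are the 43 genes of the deposited table, out of 54308 listed by symbol, that belong to the neurexins, neuroligins (NLGN1 to NLGN3), LRRTM genes, SLITRK genes, contactins (CNTN1 to CNTN6), contactin-associated proteins (CNTNAP1 to CNTNAP5 and CNTNAP3B), DLG genes, APBA genes, LIN7 genes and SHANK genes, together with CASK. They were chosen by name and not by their signals. All 43 symbols are listed, 38 had a value in at least 1 library and 31 had a value in all 6.

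Bulk RNA-seq was performed on 3 vector control (VC) and 3 CNTNAP4 knockout (KO) libraries, given as biological replicates. The labels describe VC as 143B cells 48 h after transfection with a vector plasmid and KO as 143B cells 48 h after transfection with a CNTNAP4 KO plasmid. Per the methods of the study, the plasmids carried Cas9 and a gene-specific or negative control guide, transfected cells were sorted into single-cell colonies, and RNA came from clonal cells. These accounts differ, since expanded colonies are not cells taken 48 h after transfection, and the sources do not reconcile them. Both groups went through plasmid transfection in either account, and a difference between clones cannot be told apart from a difference due to the deletion. The sources do not say which clone gave which library, so p-values measure the spread between these libraries.

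Neurexins are presynaptic membrane proteins that reach across the synapse to neuroligins and LRRTM proteins, while SLITRK proteins bind receptor tyrosine phosphatases on the presynaptic side. Contactins are immunoglobulin-domain proteins tethered to the outer membrane, and contactin-associated proteins are relatives of the neurexins that pair with them on axons. Inside the cell, CASK binds the neurexin tail and forms a complex with LIN7 proteins and APBA1. DLG and SHANK proteins form the postsynaptic scaffold. Several of these scaffolds also organise cell polarity and junctions in non-neuronal cells.

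Values are log2 signals that had been quantile-normalized between libraries, so each library has the same distribution, with a median of 0.62 and a range from -10.87 to 12.04. Between 20333 and 21041 genes had a value per library, and the number of reads behind a value is unknown. The linear unit under the log2 scale is not named, so comparing levels between genes is uncertain. Low signals, summed signals and the upper 50% of mean signal refer to the signals as deposited. Of the 11 osteoblast lineage markers, RUNX2, ALPL, COL1A1, COL1A2, SPP1, SPARC and PHEX had values in all 6 libraries. COL1A2 was low, at -5.72 to -4.59, as was PHEX, at -4.06 to -3.43. SP7 had 2 values in each group, at -7.66 to -6.52, BGLAP had a value in 2 KO libraries, and IBSP and DMP1 had none. The summed linear signal of these 11 markers, most of it from SPARC, was 102.2 to 106.0 in VC and 137.3 to 146.9 in KO. The summed neuronal markers, most of them from TUBB3, gave 43.2 to 49.6 in VC and 44.6 to 45.8 in KO, and GAD2 had no value. The summed glial markers gave 6.06 to 6.99 in VC and 5.90 to 7.57 in KO. Of the tested markers, 4 osteoblast genes rose and COL1A2 fell, RBFOX3 and GAD1 of the neuronal list fell, and OLIG2 rose while OLIG1 and SLC1A3 fell in the glial list. The part of these markers in the members' values was not tested.

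CNTNAP4, the deleted gene (chr16:76277278-76559238, GRCh38), was close to the limit of what the table records. It had a log2 signal of -7.18 in VC replicate 3, where 4.56% of that library's signals were lower, and no value in VC replicates 1 and 2 or in the 3 KO libraries. The deleted gene therefore gives no check of the labels and no fold change. Its family was otherwise well represented, apart from CNTNAP5, which had no value in any library.

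CNTNAP3 and CNTNAP3B cannot be read as separate genes without care, because they are near-identical copies on chromosome 9. In GENCODE release 29 their longest coding sequences align over 3621 bases with 43 mismatches (98.8% identity), and the longest stretch without a difference is 326 bases. Of all 50-base words in the longest CNTNAP3 transcript, 75.4% also occur in transcripts of other genes, and 59.5% occur in CNTNAP3B. Of those in CNTNAP3B, 49.4% occur in other genes, and 37.4% occur in CNTNAP3. For every other member the share found in other genes was at most 4.64%, the value of APBA1. The pair of coding segments shown here comes from exon 5 of each gene, at chr9:39178271-39178360 (CNTNAP3) and chr9:41998515-41998604 (CNTNAP3B), GRCh38, both on the minus strand and written in the direction of the transcript. The segments are shown because the capitals mark the 2 of 90 bases at which they differ. A read that lies within the segment and covers neither base cannot be assigned to one copy by its own sequence.
CNTNAP3: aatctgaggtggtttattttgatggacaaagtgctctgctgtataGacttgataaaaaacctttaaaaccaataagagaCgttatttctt
CNTNAP3B: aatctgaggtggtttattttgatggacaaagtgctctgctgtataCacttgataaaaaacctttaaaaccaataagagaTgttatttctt

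**Figure D1:**
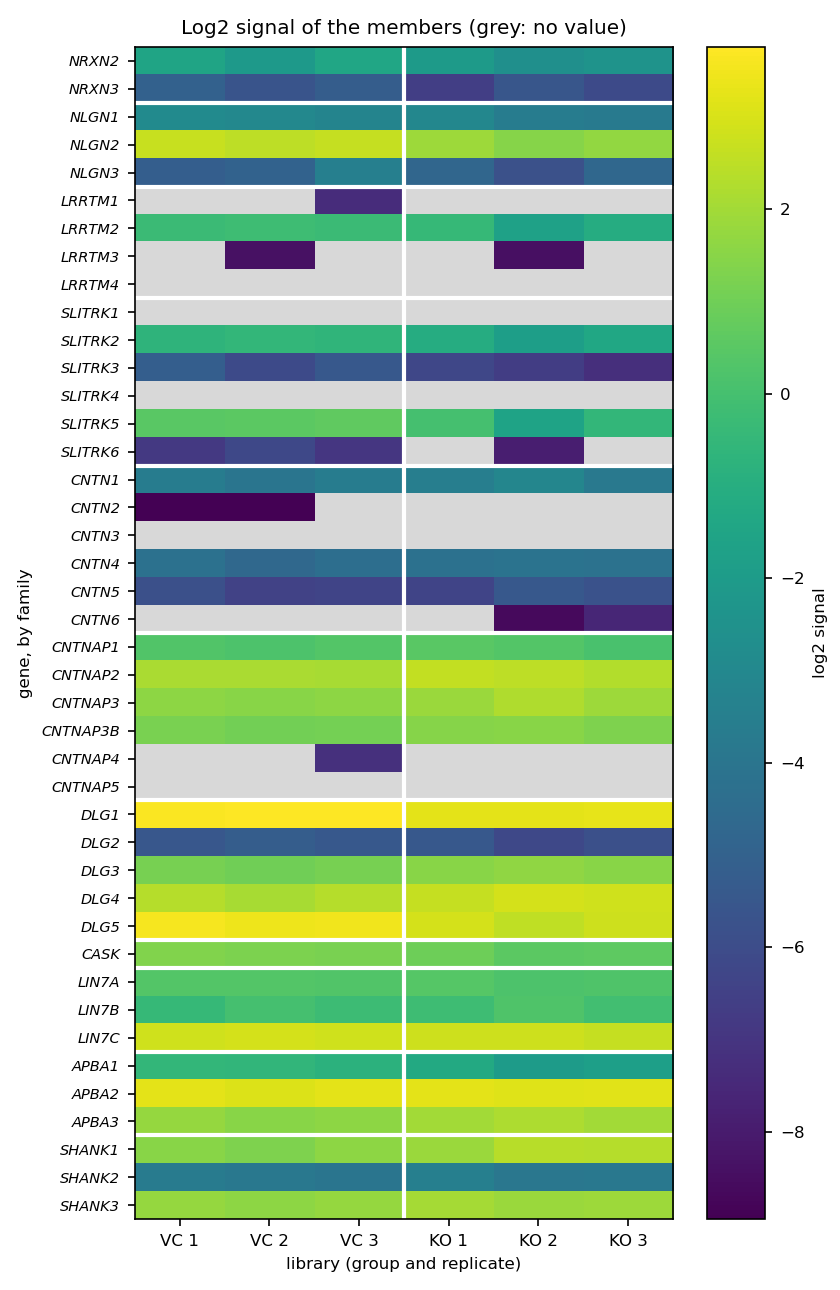
Log2 signal of the members described here (rows, grouped by family) in the 3 VC and 3 KO libraries (columns), with grey where a gene had no value. Scaffold genes of every family carried values in all 6 libraries, whereas several surface genes, among them CNTNAP4, had empty cells.

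Detection differed by role. All 15 scaffold genes had 6 values, against 16 of the 28 surface genes. LRRTM4, CNTNAP5, CNTN3, SLITRK1 and SLITRK4 had no value in any library. The remaining surface genes had a value in some libraries only, all at low signals.

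CNTN6 had values only in KO replicates 2 and 3, at -8.62 and -7.58. SLITRK6, CNTN2 and LRRTM1 had more values in VC than in KO. Of all genes in the table, 409 had values in 2 VC and no KO libraries, as CNTN2 had. The reverse, as in CNTN6, held for 250. SLITRK6 had log2 signals of -6.86, -6.21 and -6.94 in VC, no value in KO replicates 1 and 3 and -7.87 in KO replicate 2. CNTN2, an axonal contactin, had -8.95 and -8.92 in VC replicates 1 and 2 and no value elsewhere, and LRRTM1 had only -7.32 in VC replicate 3. LRRTM3 had a value in replicate 2 of each group, -8.37 in VC and -8.44 in KO. With empty cells filled by the lowest signal of the table, none of these genes nor CNTN6 had an adjusted p under 0.05 (lowest 0.0814, for SLITRK6), and SLITRK6 alone had an unadjusted p under 0.05 (0.0197).

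Next, the 31 members with 6 values were compared between KO and VC. Of these, 12 were DEGs, which here means an adjusted p under 0.05 in limma's moderated test over all genes tested, 6 higher and 6 lower in KO. The genes that rose were CNTNAP3, CNTNAP3B, DLG3, DLG4, APBA3 and SHANK1, and those that fell were NLGN2, SLITRK2, DLG1, DLG5, CASK and APBA1. Across the 19306 genes tested, 32.9% were DEGs, 13.1% higher and 19.8% lower in KO, so 12 of 31 is close to the background. With each library centred on its median, the DEGs over all genes numbered 3141 higher and 3066 lower, against 2526 higher and 3828 lower without centring. Among the 13 tested members in the upper 50% of mean signal, 9 were DEGs, beside 39.2% of all such genes. The other 3, CASK, APBA1 and SLITRK2, were among the 18 tested members in the lower 50%, where 26.6% of all genes were DEGs. The KO and VC ranges were separate in 19 of the 31 members, with KO above in 9 and below in 10. Over all genes with 6 values the ranges were separate in 59.3%, with KO above in 22.6% and below in 36.7%. The median log2 fold change (log2FC, KO against VC) was -0.05 over the members and -0.13 over all genes tested, and fold changes are not corrected for that shift unless centring is stated.

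How many members pass depended on which libraries were used. With VC replicate 3 left out, limma called 0 members, with 12 of them at an unadjusted p under 0.05 and a lowest adjusted p of 0.0545. Without VC replicate 1 only DLG1 remained, and without VC replicate 2 or KO replicate 3 only DLG1, DLG5 and NLGN2 did. Without KO replicate 2, 7 of the 12 DEGs remained, with CNTNAP3B, DLG4, APBA3, SHANK1 and CASK lost, and SLITRK5 was also called lower. Without KO replicate 1, 11 remained, with CNTNAP3B lost, and SLITRK3, SLITRK5, NLGN1, LRRTM2, NRXN2 and DLG2 were also called lower, 17 members in all. All 12 DEGs kept an unadjusted p under 0.05 and their direction in each of these 6 fits. The number of DEGs over all genes moved as well, from 6354 with all libraries. It was 1223, 1403 and 2450 without VC replicate 3, 1 and 2, and 2018, 4393 and 8669 without KO replicate 3, 2 and 1.

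**Figure D2:**
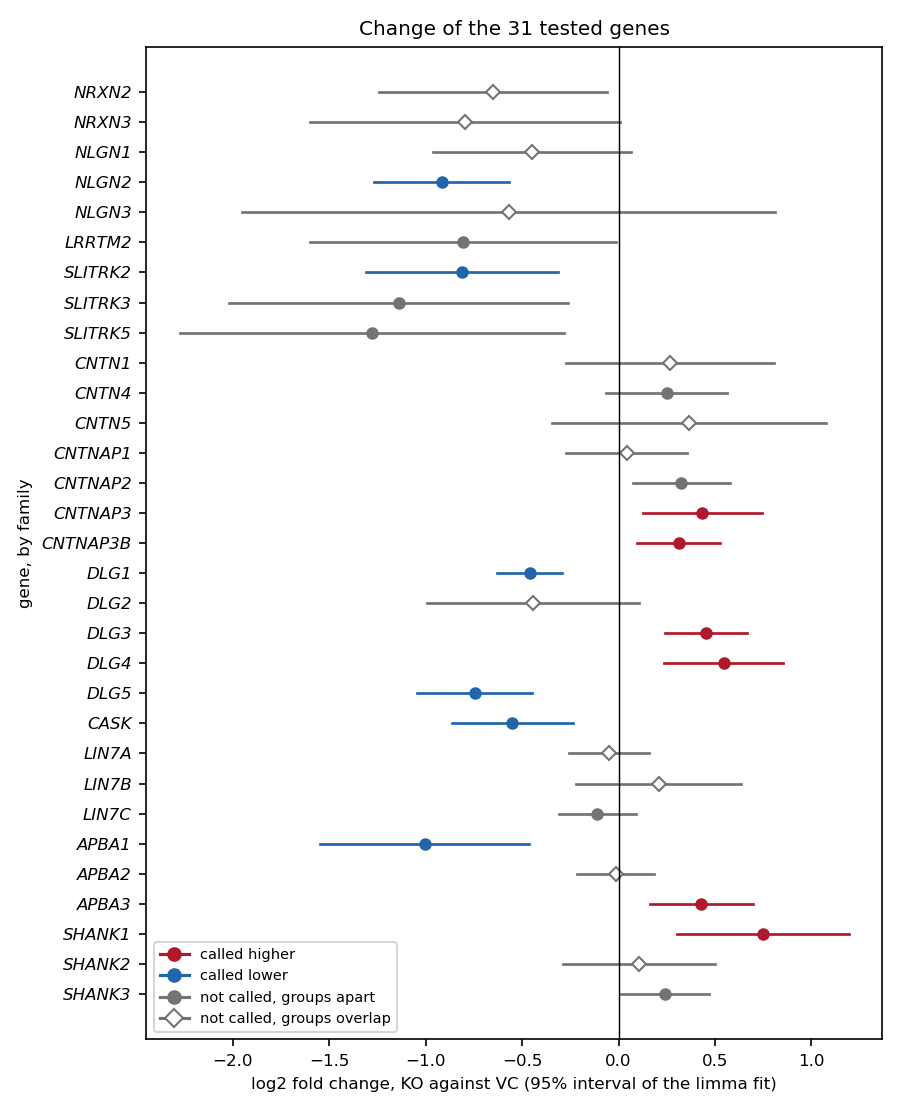
Log2FC, KO against VC, of the 31 tested members with 95% intervals from the limma fit, by family. Red and blue mark DEGs higher and lower in KO, grey filled circles mark genes that were not DEGs although the groups did not overlap, and open diamonds mark overlapping groups. The 9 tested neurexin, neuroligin, LRRTM and SLITRK genes lie left of 0 and the 7 tested contactin and contactin-associated genes lie right of it, with CNTNAP1 nearest to 0.

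Among the surface proteins, the tested neurexin, neuroligin, LRRTM and SLITRK genes had estimates opposite in sign to those of the contactin and contactin-associated genes. This split was noticed after the values were seen. The SLITRK genes stand with the neurexins in it, although their products bind receptor tyrosine phosphatases. All 9 tested neurexin, neuroligin, LRRTM and SLITRK genes had a negative log2FC (median -0.81), of which 2 were DEGs and 6 had an unadjusted p under 0.05. All 7 tested contactin and contactin-associated genes had a positive log2FC (median 0.31), of which 2 were DEGs and 3 had an unadjusted p under 0.05. Of all genes tested, 59.8% had a negative and 40.2% a positive estimate, 19.8% were DEGs lower and 13.1% DEGs higher in KO, and 5796 lower and 3445 higher of 19306 had an unadjusted p under 0.05. The signs of these tested genes held in every alternative computed, except that CNTNAP1 was at -0.05 without KO replicate 1. Untested members are not in these counts. Among the contactin and contactin-associated genes, CNTN2 and CNTNAP4 had values only in VC and CNTN6 only in KO. The DEGs were NLGN2 and SLITRK2, both lower, and CNTNAP3 and CNTNAP3B, both higher. The coding sequences of CNTNAP3 and CNTNAP3B are 98.8% identical where they align.

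Neither tested neurexin was a DEG. NRXN2 had log2 signals of -1.55, -2.09 and -1.44 in VC and -2.01, -2.60 and -2.42 in KO, with 1 VC library inside the KO range (log2FC -0.65, 95% interval -1.24 to -0.06, unadjusted p = 0.0369, adjusted p = 0.0842). For NRXN3 the signals were -4.99, -5.64 and -5.19 in VC and -6.60, -5.54 and -6.07 in KO, with overlapping groups (-0.79, interval -1.60 to 0.01, adjusted p = 0.107). NRXN3 lies on chromosome 14, where the median log2FC of 561 tested genes was -0.39, and with each chromosome centred the estimate for NRXN3 was -0.36 (adjusted p = 0.433).

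NLGN2, the neuroligin of inhibitory synapses, fell to 0.530 of its VC level (chr17:7404874-7419860). Its log2 signals were 2.68, 2.50 and 2.62 in VC and 1.91, 1.44 and 1.70 in KO. The lowest VC library was 0.59 above the highest KO library, and the fall was 0.92 on the log2 scale (standard error, SE, 0.14, adjusted p = 0.0132). The neuroligins NLGN1 (-0.45, adjusted p = 0.141) and NLGN3 (-0.57, adjusted p = 0.45) did not pass, each with overlapping groups. NLGN3 varied most of the neuroligins, from -5.13 to -3.46 within VC, and its interval of -1.95 to 0.81 leaves its direction unresolved.

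Of the SLITRK genes, which encode leucine-rich repeat proteins that control neurite growth and synapse formation, SLITRK2 fell (chrX:145817832-145829856). Its log2 signals went from -0.70, -0.55 and -0.63 in VC to -1.10, -1.83 and -1.38 in KO, a drop by 0.81 (SE 0.20, adjusted p = 0.0332). SLITRK5 had 0.52, 0.56 and 0.64 in VC and -0.01, -1.56 and -0.54 in KO, so that KO replicate 1 was nearest to VC and replicate 2 was farthest. With an SD of 0.78 in KO against 0.061 in VC, its log2FC of -1.28 did not pass (adjusted p = 0.0581). It passed when 1 was added to the linear signal (adjusted p = 0.0285). SLITRK3, at signals of -5.16 to -7.21, had a log2FC of -1.14 (adjusted p = 0.0567). In both genes every KO library was under every VC library.

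LRRTM2, a neurexin ligand of excitatory synapses, was the tested LRRTM gene. Its signals were -0.30, -0.17 and -0.30 in VC and -0.44, -1.67 and -1.07 in KO, without overlap but with KO replicate 1 close to VC (log2FC -0.81, adjusted p = 0.101).

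CNTNAP3 and CNTNAP3B rose. CNTNAP3 had log2 signals of 1.58, 1.52 and 1.60 in VC and 1.85, 2.24 and 1.91 in KO, a log2FC of 0.43 (SE 0.12, adjusted p = 0.0467). CNTNAP3B had 1.18, 1.04 and 1.12 in VC and 1.44, 1.52 and 1.32 in KO, a log2FC of 0.31 (SE 0.09, adjusted p = 0.0435). The groups did not overlap in either gene, but as the segments printed above show, reads of these copies could have been split or exchanged between them, so they are not independent results. CNTNAP3B was not a DEG in any of the 6 fits with a library omitted.

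CNTNAP2, the largest member by genomic span (chr7:146116002-148420998) and the protein that clusters potassium channels along myelinated axons, had 2.15, 2.12 and 2.11 in VC and 2.59, 2.49 and 2.27 in KO. All KO libraries were above all VC libraries, and the log2FC of 0.33 narrowly missed the threshold (SE 0.10, adjusted p = 0.0571). It passed in 6 of 9 alternatives that kept all libraries, among them the centring of libraries on their medians (adjusted p = 0.0242). CNTNAP1, the contactin-associated protein of the paranodal junction, had a difference of 0.04 with a 95% interval from -0.27 to 0.36 (adjusted p = 0.811).

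The contactins CNTN1, CNTN4 and CNTN5 had values in all libraries, between -6.46 and -3.10, and log2FC values of 0.27, 0.25 and 0.36. None was a DEG and none had an unadjusted p under 0.05 in limma's test (adjusted p = 0.369, 0.172 and 0.352). In CNTN4 the 3 KO libraries were within 0.06 of each other, from -4.19 to -4.13, and just above the highest VC library at -4.23.

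**Figure D3:**
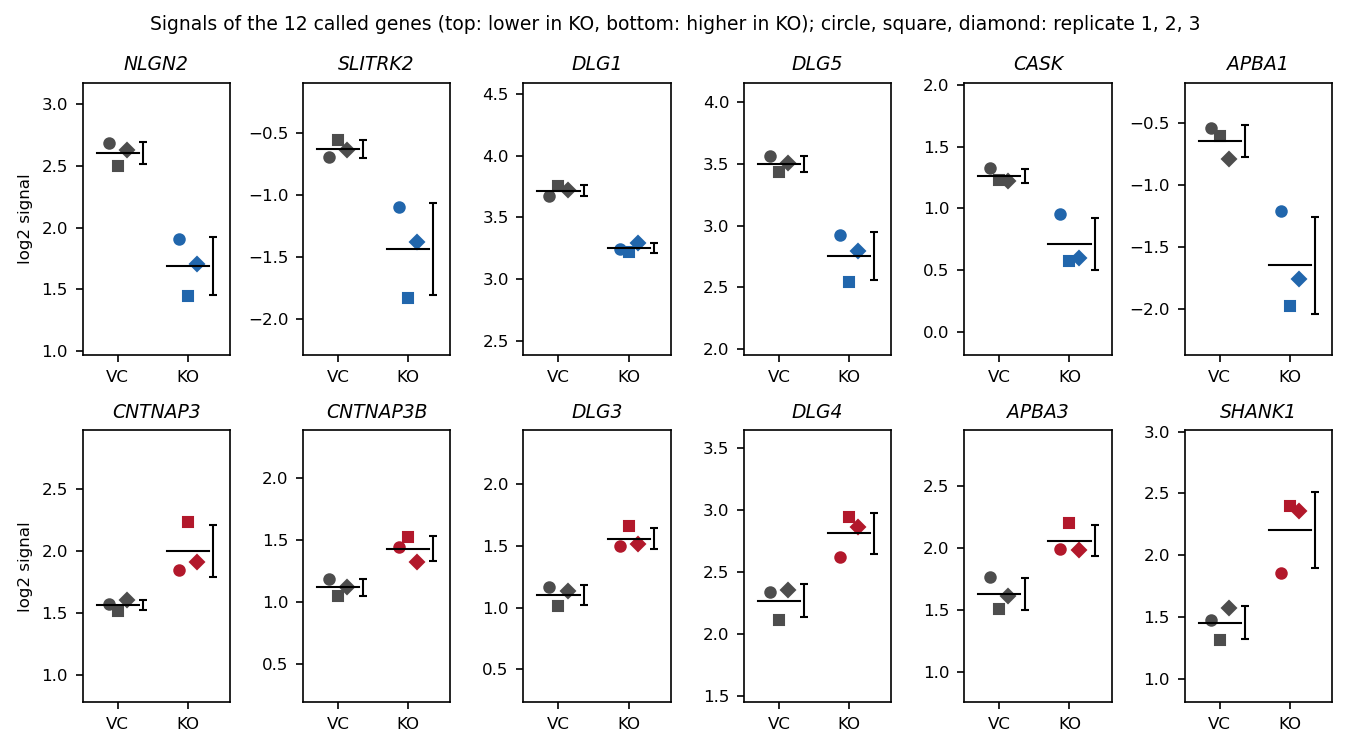
Log2 signals of the 12 DEGs among the members, 6 lower in KO (top row) and 6 higher (bottom row), with each library as a point, the group mean as a line and the SD (n = 3) as a bar beside it. Every panel spans 2.2 log2 units. In all 12 genes the groups do not overlap, and the KO libraries spread more widely than the VC libraries in most panels.

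The DLG family of membrane-associated scaffolds was divided, with DLG1 and DLG5 lower and DLG3 and DLG4 higher in KO. DLG1, a scaffold of both synapses and epithelial junctions (chr3:197042560-197299300), had the narrowest 95% interval of the 31 tested members (-0.63 to -0.29). Its log2 signals were 3.67, 3.76 and 3.72 in VC and 3.25, 3.22 and 3.30 in KO, a fall by 0.46 (SE 0.07, adjusted p = 0.0122). It remained a DEG in 5 of the 6 fits with a library omitted.

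DLG5, which acts in cell polarity and adhesion (chr10:77790791-77926526), had 3.56, 3.43 and 3.50 in VC and 2.92, 2.54 and 2.79 in KO. The groups were 0.51 apart, and the signal fell by 0.75 on the log2 scale (SE 0.12, adjusted p = 0.0141). Like NLGN2, it stayed a DEG without any 1 of 4 libraries and lost its call without VC replicate 1 or 3.

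In the opposite direction, DLG3 (chrX:70444861-70505490) had 1.16, 1.01 and 1.14 in VC and 1.50, 1.66 and 1.52 in KO, a log2FC of 0.45 (SE 0.08, adjusted p = 0.0186). DLG4, the best known scaffold of the postsynaptic density (chr17:7187169-7219841), had 2.33, 2.11 and 2.35 in VC and 2.62, 2.95 and 2.86 in KO, a log2FC of 0.54 (SE 0.12, adjusted p = 0.0281). Neither pair of groups overlapped. DLG2, at signals of -6.21 to -5.19, had a log2FC of -0.44 with overlapping groups (adjusted p = 0.169). With each chromosome or each library centred on its median, the 4 DLG DEGs kept their direction and stayed under 0.05.

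CASK, the kinase-like scaffold that binds the tails of neurexins and contactin-associated proteins, fell together with APBA1, an adaptor in the same complex. CASK (chrX:41514934-41923645) had log2 signals of 1.33, 1.23 and 1.23 in VC and 0.96, 0.57 and 0.60 in KO, with KO replicate 1 nearest to VC. APBA1 (chr9:69427530-69672306) had -0.54, -0.60 and -0.79 in VC and -1.21, -1.98 and -1.76 in KO, which is 0.498 of the VC level (standard error of the log2FC 0.21). The groups overlapped in neither gene (adjusted p = 0.0286 for CASK and 0.0252 for APBA1). Of the 6 fits with a library omitted, CASK was a DEG in 1 and APBA1 in 2.

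None of the LIN7 genes, whose products complete that complex, passed the test. LIN7C had 2.82, 2.93 and 2.82 in VC and 2.81, 2.77 and 2.66 in KO, groups that were 0.01 apart (log2FC -0.11, 95% interval -0.31 to 0.09, adjusted p = 0.317). The intervals were -0.25 to 0.16 for LIN7A and -0.22 to 0.64 for LIN7B. None of the 3 had an unadjusted p under 0.05 in limma's test, and the interval of LIN7B leaves room for a rise of the size seen in DLG3.

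The other APBA genes differed from APBA1. APBA3, the widely expressed member of the family (chr19:3750819-3761699), rose from 1.77, 1.51 and 1.61 in VC to 1.99, 2.20 and 1.98 in KO, a log2FC of 0.43 (SE 0.11, adjusted p = 0.0346). APBA2 had 3.26, 3.10 and 3.23 in VC and 3.24, 3.12 and 3.18 in KO. Its groups overlapped entirely, and the 95% interval of its difference, -0.21 to 0.18, was among the narrowest of the members.

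SHANK1, a scaffold that links postsynaptic receptors to the actin cytoskeleton (chr19:50661827-50719450), had the largest rise of the 31 tested members. It had log2 signals of 1.48, 1.31 and 1.58 in VC and 1.85, 2.40 and 2.36 in KO, a 1.68-fold rise (log2FC 0.75, SE 0.18, adjusted p = 0.0309). SHANK3 had 1.74, 1.58 and 1.73 in VC and 2.04, 1.86 and 1.87 in KO, without overlap (log2FC 0.24, adjusted p = 0.0921). SHANK3 lies on chromosome 22, where 447 tested genes had a median log2FC of 0.29, the highest of any chromosome. With each chromosome centred, SHANK3 was at -0.03 (adjusted p = 0.813), and with each library centred it passed (adjusted p = 0.03). What chromosome 22 as a whole contributes to that value was not tested. For SHANK2 the difference was 0.11 with an interval of -0.29 to 0.50.

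The KO libraries were not equally far from VC. In all 12 DEGs KO replicate 2 was the library farthest from the VC mean, and in 9 of them KO replicate 1 was the nearest. Over all 6166 DEGs with 6 values the farthest library was KO replicate 2 in 4651 and the nearest was KO replicate 1 in 4584. The SD was larger in KO than in VC in 24 of the 31 members, against 70.2% of all genes with 6 values. In RNA pooled from many cells, fewer cells with a transcript and less transcript per cell cannot be told apart.

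**Figure D4:**
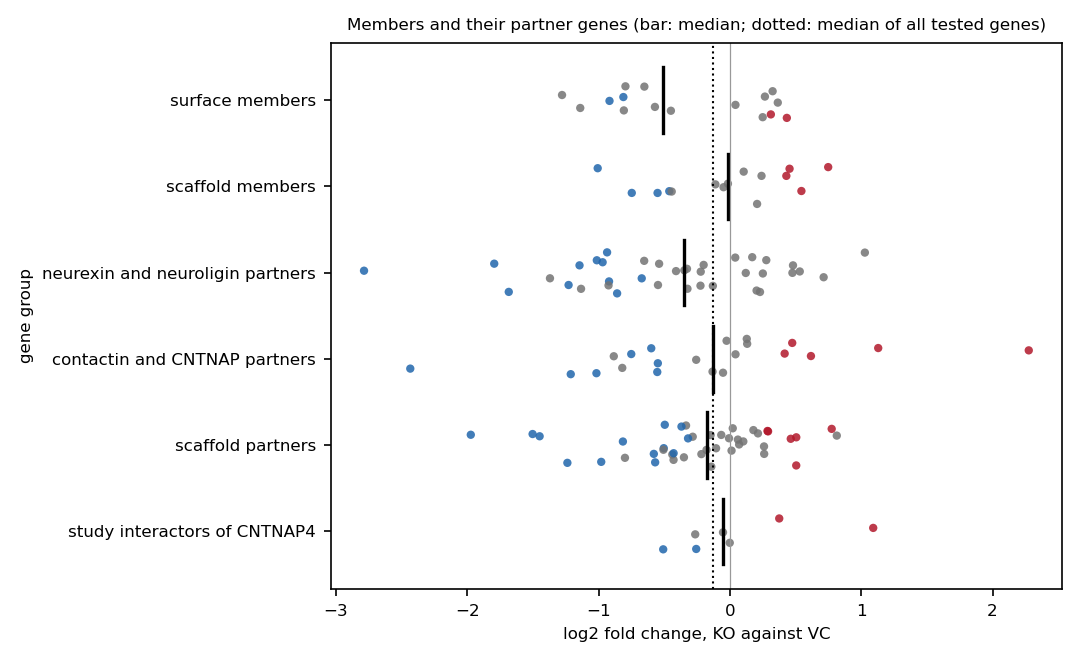
Log2FC, KO against VC, of each tested gene among the surface and scaffold members and 4 lists of partner genes, with blue for DEGs lower in KO, red for DEGs higher in KO and grey for the others. Black bars mark list medians, and the dotted line marks the median of all tested genes (-0.13). The list labelled neurexin and neuroligin partners also includes partners of SLITRK and related synaptic receptors. It holds 11 blue points and no red point among 37 tested genes. Over all genes tested, 19.8% were DEGs lower and 13.1% DEGs higher in KO.

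The binding partners of these proteins were then examined by role, in lists drawn up from general knowledge of the complexes. Earlier results of these data were known when the lists were chosen, so their shares are not independent evidence. Of 46 ligands and partners of neurexins, neuroligins, SLITRK and related synaptic receptors, 37 were tested, 11 fell, none rose and 26 did not pass (median log2FC -0.35). These DEGs make up 29.7% of the list, beside 32.9% over all genes tested, of which 19.8% were lower and 13.1% higher. At an unadjusted p under 0.05, 17 were lower and 2 were higher, beside 5796 lower and 3445 higher of the 19306 genes tested. The largest falls were in TENM2, a teneurin that binds latrophilins, FLRT2, an adhesion protein of the same complex, NXPH2, a secreted neurexin ligand, and CLSTN2, a calsyntenin. TENM2 went from -2.51, -2.77 and -2.71 in VC to -4.81, -5.90 and -5.63 in KO (log2FC -2.79, SE 0.30, adjusted p = 0.00857). CLSTN2 had replicates close together, with -2.04, -2.17 and -2.23 in VC and -3.30, -3.49 and -3.33 in KO (log2FC -1.23, adjusted p = 0.00583). Both were DEGs with each library left out in turn. FLRT2 (-1.79, adjusted p = 0.0152) and NXPH2 (-1.68, adjusted p = 0.0376) were each DEGs in 2 of those 6 fits, and FLRT2 lies on chromosome 14.

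The partners of contactins and contactin-associated proteins moved in both directions. Of 24 genes, 21 were tested, 5 rose, 7 fell and 9 did not pass (median -0.13), so that 57.1% were DEGs beside 32.9% over all genes tested. NRCAM, an L1-family cell adhesion molecule that binds contactins, had the largest rise, from -0.21, -0.43 and -0.15 in VC to 2.07, 2.12 and 1.85 in KO (log2FC 2.28, SE 0.12, adjusted p = 0.00466). Its relative L1CAM went the other way, from -0.89, -0.81 and -0.52 to -1.88, -1.99 and -1.99 (log2FC -1.21, SE 0.12, adjusted p = 0.00789).

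NCAM1 and NCAM2, neural cell adhesion molecules of another immunoglobulin family, were likewise opposed. NCAM2 fell by 2.43 (adjusted p = 0.00895), and NCAM1 had a log2FC of 0.47 (adjusted p = 0.0158). The ankyrins, which anchor L1-family proteins to the spectrin skeleton, rose, ANK2 by 1.13 (adjusted p = 0.0198) and ANK3 by 0.62 (adjusted p = 0.0083). EPB41, a linker that ties membrane proteins to actin, fell by 0.75 (adjusted p = 0.0285), and KCNA2, a potassium channel of the juxtaparanode, fell by 1.02 (adjusted p = 0.0298). NRCAM, L1CAM, NCAM2 and ANK3 were DEGs with each library left out in turn, whereas NCAM1, ANK2, EPB41 and KCNA2 were DEGs in 2 of those 6 fits. NELL1, the secreted glycoprotein that the study describes as binding CNTNAP4, had values only in VC replicates 2 and 3, at -6.45 and -7.60.

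Among 48 genes whose products bind the scaffolds, 43 were tested, 6 rose, 13 fell and 24 did not pass (median -0.18), so that 44.2% were DEGs beside 32.9% over all genes tested. The largest falls were in GRIN2B, an NMDA receptor subunit (-1.97, adjusted p = 0.0362), SIPA1L2, a GTPase-activating protein of Rap (-1.50, adjusted p = 0.00809), KIF17, a kinesin that carries APBA1 complexes (-1.45, adjusted p = 0.0169), and CASKIN1, a CASK-binding adaptor (-1.24, adjusted p = 0.0197). GRIN2B was at signals of -7.93 to -4.95, where 10% of a library's signals lie under -6.06, and was a DEG in 1 of the 6 fits with a library omitted. SIPA1L2 was a DEG in all 6, with 1.80, 1.78 and 1.80 in VC and 0.59, 0.06 and 0.22 in KO.

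The largest rises on the scaffold side were in PICK1, a PDZ-domain protein that binds glutamate receptors (0.78, adjusted p = 0.0176), KIF13B, a kinesin that carries DLG1 (0.51, adjusted p = 0.0208), ABI1, a regulator of actin branching (0.51, adjusted p = 0.0148), and MPP1, a relative of CASK (0.46, adjusted p = 0.0131). PICK1 lies on chromosome 22. Each of these genes lost its call in at least 2 of the 6 fits with a library omitted.

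Of a further 7 genes that the study lists as CNTNAP4 interactors, 2 rose, 2 fell and 3 did not pass, so that 57.1% were DEGs beside 32.9% over all genes tested. CCDC184 went from -0.64, -0.91 and -1.13 in VC to 0.12, 0.25 and 0.23 in KO (log2FC 1.09, adjusted p = 0.0101) and was a DEG with each library left out in turn. MACF1, a crosslinker of actin and microtubules, had 4.14, 4.14 and 4.10 in VC and 4.49, 4.50 and 4.51 in KO (0.38, adjusted p = 0.0148). The lower genes were TIAM1, an activator of RAC (-0.51, SE 0.13, adjusted p = 0.0374), and FBXO21, an F-box protein (-0.26, SE 0.07, adjusted p = 0.047). MACF1 was a DEG in 3 of the 6 fits with a library omitted, and TIAM1 and FBXO21 in 1 each. Because the study shows most of this list on the same libraries, its counts are not independent evidence of a direction.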

How the data were processed

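The authors prepared libraries from 143B cells (TruSeq Stranded mRNA kit per the labels, total RNA, sequenced on a NextSeq machine, per the methods). The submitters' processing notes name CASAVA, STAR, Partek and GRCh38.p13, and the methods name CLC Genomics Server and Workbench. The deposited table holds log2 signals by gene symbol, quantile-normalized by the authors, which leaves depth and counting error unknown. An empty cell is a gene without a value. Columns were assigned to VC and KO from the labels.

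The 19306 genes that had 2 or more values both in VC and in KO were tested in R 4.3.3 with limma 3.58.1 (linear model, empirical Bayes moderation, two-sided p, Benjamini-Hochberg adjustment over all genes tested). An exact permutation test of 3 against 3 libraries cannot go below 0.1. The procedure was run on simulated data in which 200 of 19306 genes were changed by 2 log2 units. It recovered 77% of these and called 4 unchanged genes. Changes as small as those of the members were not simulated. Positions come from GENCODE release 29 (GRCh38), and chromosome medians use a RefSeq table of gene positions. Shared sequence was counted as 50-base words of the longest coding transcript of each member.

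The counts include every member, of which 1 is not reported here by name. Named with values in each library were CNTNAP4, the DEGs among the members, tested members in the upper 50% of mean signal and members whose detection differed between groups, and values of further members were added where their family is described. From each partner list the DEGs with the 4 largest changes in each direction are named, and PALS1 and PALS2 are listed under older symbols. NELL1 was added as the ligand of the deleted protein. Members and lists were chosen with earlier results of these data known. Alternatives were the genes tested, filling of empty cells, centring of libraries or chromosomes, 1 added to the linear signal, other variance models, a replicate block and each library left out.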

Additional observations from a re-analysis of the deposited data

How the results depend on the processing

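Of the 12 DEGs among the members, all 12 remained with genes that have 6 values, with centring of libraries or of chromosomes, with 1 added to the linear signal and with a trended, robust variance model. When testing was limited to the 50% of genes with the highest mean, 8 members were higher and 3 lower in KO, of 13 tested. All 9 DEGs tested there remained, and CNTNAP2 and SHANK3 were also called higher. CASK, APBA1 and SLITRK2 were not in that fit. With empty cells filled, 2 members were higher and 3 lower (1545 and 1979 over all genes). Without variance moderation, 1 was higher and 3 lower, and 2442 of all genes were lower. With a replicate block, 0 members were higher and 2 lower (DLG5 and NLGN2, adjusted p = 0.0479 each in limma), with 17 of 31 at an unadjusted p under 0.05, and 594 and 939 of all genes were called. Whether replicate numbers pair the libraries is not settled by these values. The correlation of same-numbered deviations from group means was 0.0226, 0.00509 and -0.00736 for replicates 1, 2 and 3. For libraries with different numbers it was -0.0304 to 0.0314, and not every library correlated best with its own number. With single libraries left out, the number of members was 0 to 5 higher and 0 to 12 lower, and over all genes 654 to 2940 higher and 569 to 5729 lower. Fewer libraries enter those fits. The causes of the other changes were not tested. No DEG among the members changed sign in any alternative. Signs changed for LIN7A (0.040) and APBA2 (0.073) with libraries centred, for SHANK3 (-0.028) with chromosomes centred, and with single libraries left out for SHANK2 (-0.026 to 0.20), LIN7A (-0.11 to 0.0015), APBA2 (-0.063 to 0.018) and CNTNAP1 (-0.054 to 0.16). Quantile normalization hides depth, so signals near the lower end of the table, as in CNTN6 and CNTNAP4, have no known counting error.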
